A study of Mus musculus with 12 samples.

Results

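*Wdr20*, *Btbd7*, *Il4i1* and *Knop1* are 4 genes with introns in the splicing tables of embryonic stem cells depleted of METTL3 that were selected on values measured in these samples: the study's gene-level calls of altered nascent expression and its splicing comparison. Every tested splicing cluster that names one of them was taken, which gave 4 of 7263 tested clusters and 15 of 20437 introns, with 1 cluster per gene. No expression call was redone here, and the gene-level values were not analysed here. Nascent RNA was measured by 4sU-seq, in which cells build the uridine analogue 4-thiouridine into new transcripts and the labelled RNA is pulled down and sequenced. The dTAG group had 3 h of dTAG-13 and the Ctrl group 0 h, both followed by 30 min of 4sU, with 6 samples in each group. The knock-in clones C3 and H5 each gave 3 replicates to each of them. Cells of both groups were female 129S x Cast hybrids that carry *Mettl3* with a C-terminal FKBP12(F36V) tag and a doxycycline-inducible *Xist*, and both were grown on mitotically inactive fibroblast feeders. dTAG-13 is a small molecule that recruits the tagged protein to the ubiquitin ligase machinery, so that it is degraded, and the level of METTL3 protein was not part of the data used here.

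METTL3 is the catalytic subunit of the complex that writes N6-methyladenosine (m6A) into RNA while it is being transcribed. An intron is removed by joining a 5′ splice site, which usually opens the intron with GT, to a 3′ splice site, which usually closes it with AG, and a choice between sites decides which exons a transcript holds. WDR20 is a WD40 repeat protein that activates the deubiquitinases USP12 and USP46 together with WDR48. BTBD7 is a BTB domain protein known for its part in epithelial branching in the mouse salivary gland. IL4I1 is a secreted amino acid oxidase best known from immune cells, and KNOP1 is a lysine-rich nucleolar protein.

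The tables give the percent spliced in (PSI) of an intron, here a fraction from 0 to 1, which is the share of the split reads of its cluster that join across that intron. A cluster is a group of introns connected by shared splice sites, so the PSI values of its introns sum to 1 and one intron is lower where another is higher. Each condition has 1 fitted PSI over both clones. The PSI columns therefore carry neither the spread between replicates nor the number of reads, and cannot show whether a difference holds in each clone. The authors also deposited the outcome of their own test for each cluster, which sets the conditions against the variation between samples. It was not used here, so the differences below are given as sizes, without a test. A deltaPSI is the dTAG value minus the Ctrl value. Of 10 embryonic stem cell marker genes, 7 had a tested cluster, including *Nanog*, *Esrrb* and *Zfp42*, while *Pou5f1*, *Sox2* and *Lin28a* had none. Of 6 fibroblast markers only *Fn1* had one, and for both lists this shows that alternative introns had reads, not a level of expression. A gene without introns, or without alternative ones, cannot have a tested cluster, so a missing cluster says nothing about expression.

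The splice sites that compete in each cluster are shown first, because the results are choices between them. They were read from the GRCm38.p6 reference (RefSeq), the mm10 build of the files, on the strand of the gene, with the first pair of intron bases of a 5′ site and the last pair of a 3′ site in capitals. A 5′ site is given as 3 exon and 6 intron bases, and a 3′ site as 20 intron and 3 exon bases.
Wdr20 5′ site of exon 2, chr12:110779476-110779484, plus strand: gaaGTaagt
Wdr20 3′ site of the proximal last exon, chr12:110793094-110793116, plus strand: tgttctctttgtcttcacAGaga
Wdr20 3′ site of the distal last exon, chr12:110803385-110803407, plus strand: ggaaactgctttgttcacAGggc
Btbd7 5′ site of exon 3, chr12:102837612-102837620, minus strand: aagGTatga
Btbd7 5′ site of the cassette exon, chr12:102836366-102836374, minus strand: aagGTatga
Btbd7 3′ site of the cassette exon, chr12:102836430-102836452, minus strand: cattcctttattctataaAGcca
Btbd7 3′ site of exon 4, chr12:102812841-102812863, minus strand: gtatttgccttctcttttAGgct
Nup62 and Il4i1 main 5′ site of exon 1, chr7:44816481-44816489, plus strand: gcgGTgagc
Nup62 3′ site of exon 2, chr7:44828467-44828489, plus strand: tgtcacttcctctgctctAGaaa
Il4i1 3′ site of exon 2, chr7:44832096-44832118, plus strand: attgcagtttccttctctAGgaa
Knop1 GC 5′ site of exon 2, chr7:118852397-118852405, minus strand: gagGCaggt
Knop1 upstream 5′ site of exon 2, chr7:118852883-118852891, minus strand: gagGTaagc

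In *Wdr20* (ENSMUSG00000037957.14) the cluster holds the last intron with 2 alternative ends. Both introns start at the 5′ splice site of exon 2. One, chr12:110779479-110793113, is 13635 nt long and leads to the proximal last exon of Wdr20-201, and the other, chr12:110779479-110803404, is 23926 nt long and leads to the distal last exon of Wdr20-205. The distal junction had a PSI of 0.850 in dTAG cells, against 0.374 in Ctrl cells, a deltaPSI of 0.48. The proximal junction had the complement, 0.150 in dTAG cells and 0.626 in Ctrl cells. The more used last exon was thus the distal one in dTAG cells and the proximal one in Ctrl cells.

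The last exons of *Wdr20* encode proteins of different length in the GENCODE vM21 annotation. The proximal last exon (chr12:110793114-110795028, 1915 nt) carries 425 of the 569 codons of Wdr20-201, or 74.7% of its coding sequence. The distal last exon (chr12:110803405-110804238, 834 nt) carries 17 codons, and Wdr20-205 has 161 codons in all. Both transcripts are annotated as protein coding, and both introns are also in RefSeq. Transcripts that reach the proximal exon from other exons, such as the nonsense-mediated decay transcript Wdr20-204, are outside the tested cluster. The PSI therefore describes only the choice between these 2 introns out of exon 2.

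**Figure D1:**
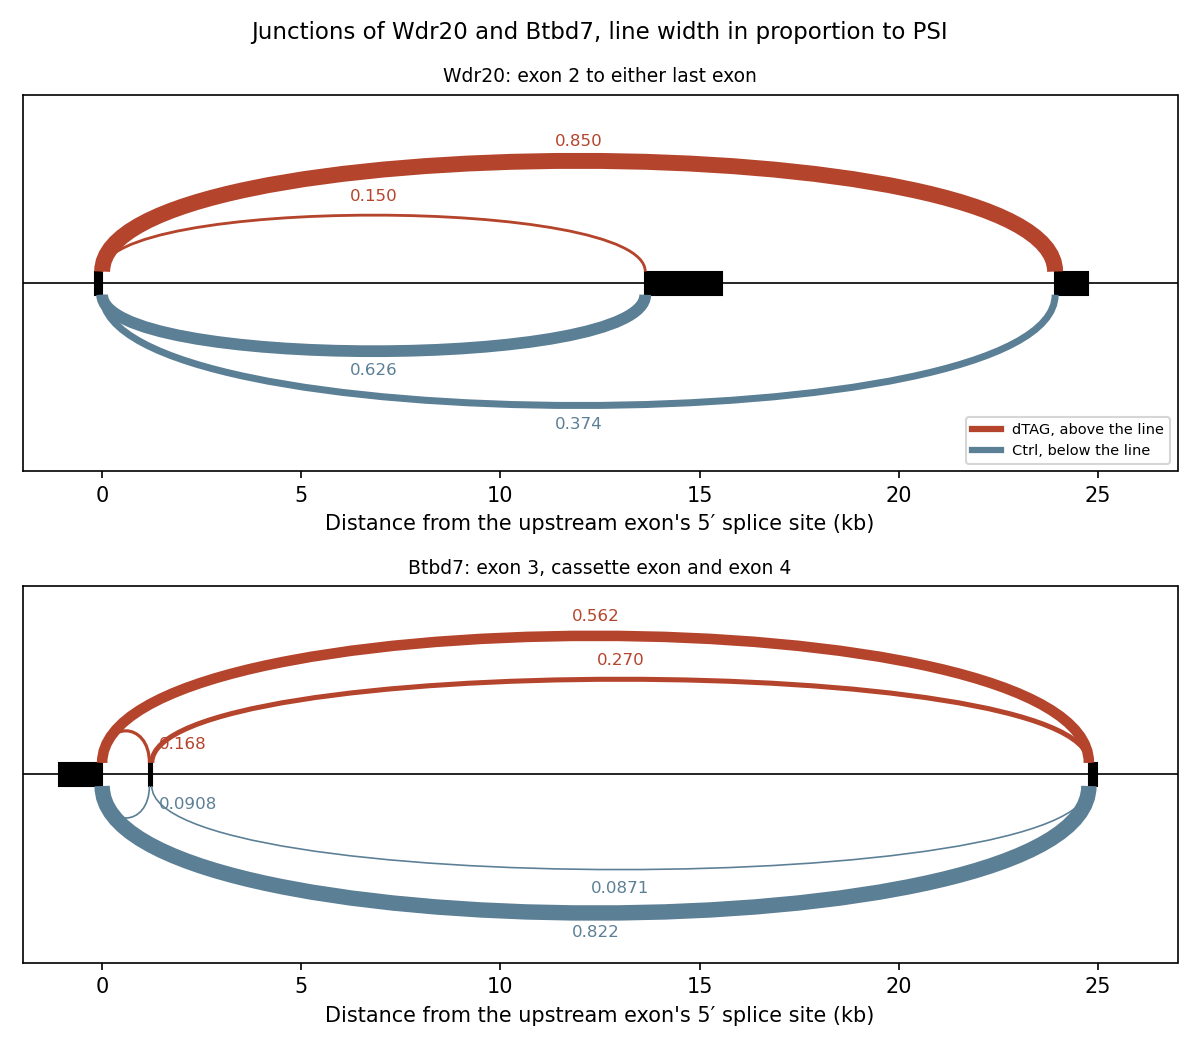
Junctions of *Wdr20* (upper panel) and *Btbd7* (lower panel) drawn to scale, with distance in kb from the 5′ splice site of the upstream exon on the x axis, exons as black boxes, dTAG arcs above the line, Ctrl arcs below it, and arc width in proportion to the fitted PSI printed beside each arc. In *Wdr20* the wide arc ends at the distal exon in dTAG cells (0.850) and at the proximal exon in Ctrl cells (0.626), and in *Btbd7* the skipping arc is narrower in dTAG cells (0.562) than in Ctrl cells (0.822).

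Few clusters of the same build differed as much as *Wdr20*. The gene was selected on this same contrast, so its place among them is a description only. Of 1828 clusters made of a pair of introns with a shared 5′ splice site, 2 had a deltaPSI of at least this size, *Wdr20* included, and their median size was 0.0141. In 248 of these clusters the 3′ splice sites lie at least 1000 nt apart, as in *Wdr20*, where the distance is 10291 nt. The distal site had the higher PSI in dTAG cells in 113 of these 248 clusters, and in 18 of the 31 whose deltaPSI reached 0.1 in size. The distal 3′ site of *Wdr20* is the less canonical one by its letters. It scored 5.62 on a log2 odds scale built from all 13536 3′ splice sites of the tables, at the 16.7 percentile, while the proximal site scored 12.8, at the 86.0 percentile.

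In *Btbd7* (ENSMUSG00000041702.7) the cluster is an exon skipping event in the intron between exons 3 and 4 of Btbd7-201. The skipping junction, chr12:102812844-102837617, spans 24774 nt and had a PSI of 0.562 in dTAG cells, against 0.822 in Ctrl cells, a deltaPSI of -0.26. The junction into the cassette exon, chr12:102836433-102837617, had a PSI of 0.168 in dTAG cells and 0.0908 in Ctrl cells. The junction out of it, chr12:102812844-102836371, had a PSI of 0.270 in dTAG cells and 0.0871 in Ctrl cells. Both inclusion junctions were higher in dTAG cells and the skipping junction remained the most used in both conditions.

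The inclusion junctions were not higher by the same factor. The downstream junction was 3.10 times its Ctrl value in dTAG cells and the upstream one 1.85 times. Downstream over upstream was 1.60 in dTAG cells and 0.959 in Ctrl cells, although both junctions belong to the same exon. The log2 of this ratio differed by 0.74 between the conditions, and 135 of 2411 clusters with a single cassette exon had a difference of at least that size (median 0.136). With the inclusion junctions averaged, the inclusion level of the exon came to 0.280 in dTAG cells and 0.0977 in Ctrl cells. Of the 2411 cassette exons, 8 were higher in dTAG cells by at least as much, *Btbd7* included. A difference of at least this size in either direction was seen in 15. *Btbd7* was selected on this same contrast, so these counts only describe its place.

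The cassette exon, chr12:102836372-102836432, is 61 nt long and is shown for its frame, in capitals, with the last 20 bases of the intron before it and the first 10 bases of the one after it. The first 20 bases of exon 4 follow, with the triplet in capitals that becomes a stop codon when the exon is included.
Btbd7 cassette exon, chr12:102836362-102836452, minus strand: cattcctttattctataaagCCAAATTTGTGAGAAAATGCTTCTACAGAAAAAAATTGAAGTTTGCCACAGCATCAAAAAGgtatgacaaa
Btbd7 exon 4 start, chr12:102812824-102812843, minus strand: gctgTGAggacatcattgct

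The 61 nt are not a multiple of the codon length, so inclusion shifts the reading frame. Read from the start codon of Btbd7-201, the open frame is 1130 codons long without the exon and 409 codons with it, since the shifted frame meets TGA at base 5 of exon 4. GENCODE vM21 has no exon with these ends, and places the sequence inside the 3065 nt last exon of the retained-intron transcript Btbd7-203. RefSeq holds both inclusion junctions in 1 curated transcript, which it classes as non-coding. The 5′ splice sites of exon 3 and of the cassette exon are the same in all 9 bases shown, aagGTatga, and score 8.86, higher than or equal to 66.5% of 13986 sites. The 3′ splice sites are not alike, with a score of 7.62 for the cassette exon and 12.1 for exon 4.

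**Figure D2:**
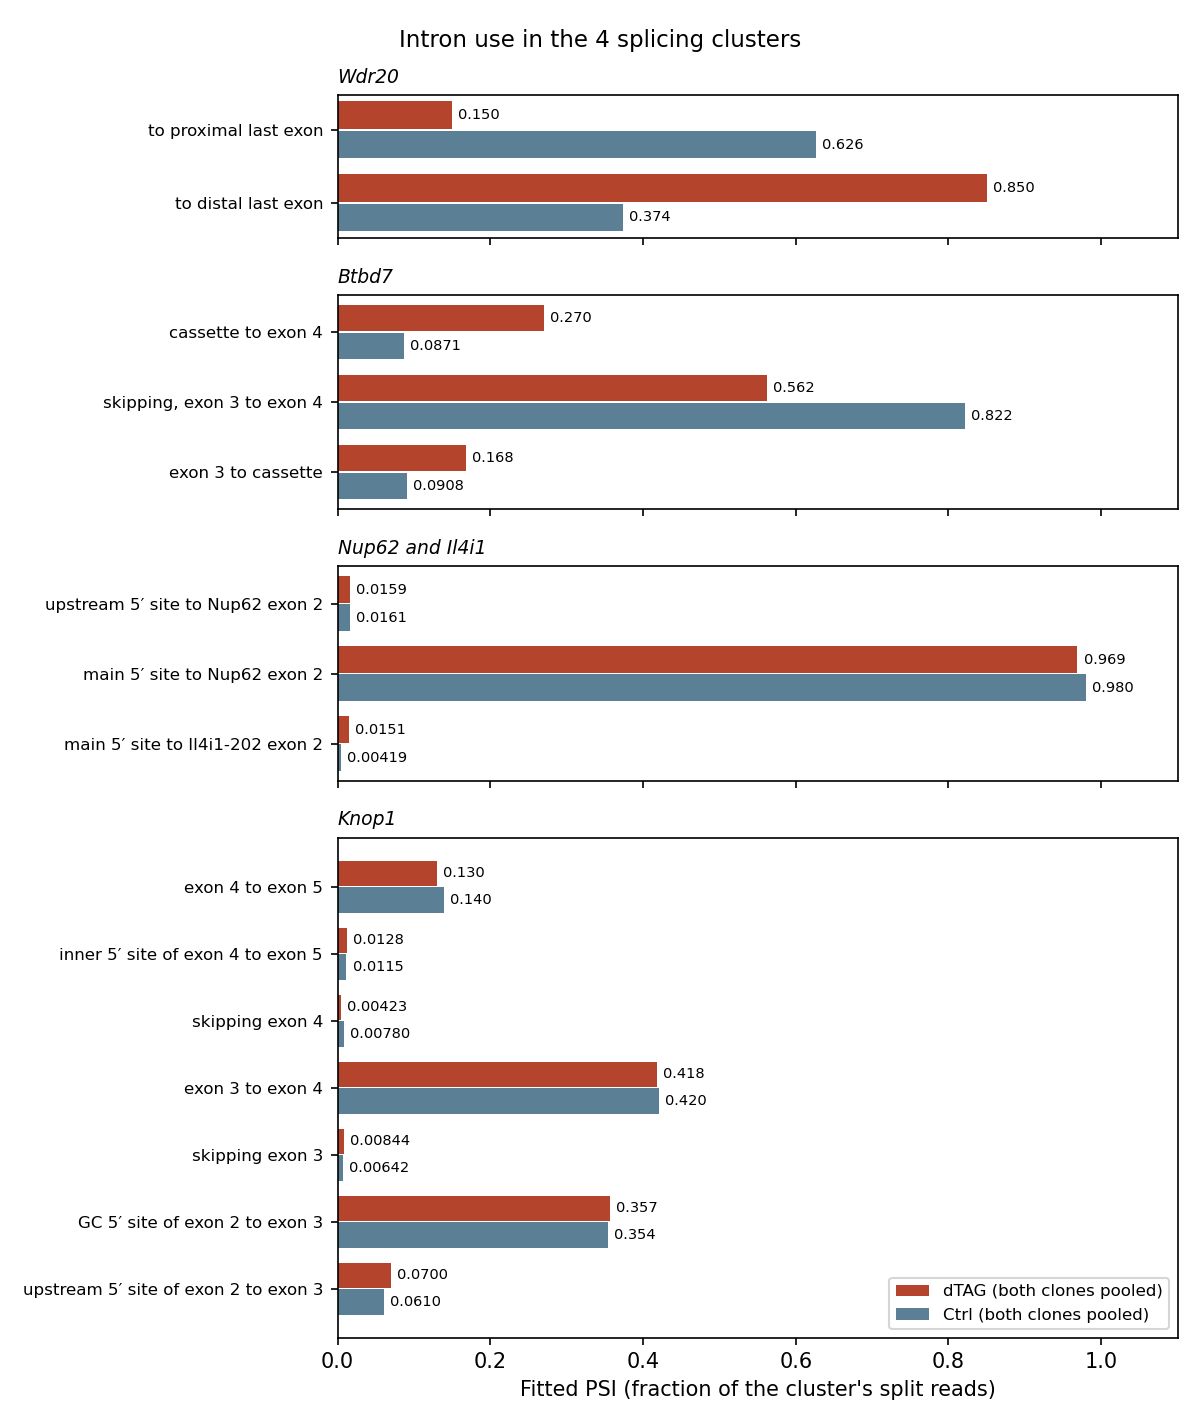
Fitted PSI (x axis, a fraction of the cluster's split reads) of all 15 introns in the 4 clusters, with 1 dTAG bar above 1 Ctrl bar for each intron and both clones pooled in each bar, so that there are no error bars. The dTAG and Ctrl bars are far apart in *Wdr20* (0.850 and 0.374 for the distal junction) and *Btbd7* (0.562 and 0.822 for skipping) and nearly of one length in *Knop1*.

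The *Il4i1* cluster is shared with *Nup62* (ENSMUSG00000109511.1), which encodes a nucleoporin of the central channel of the nuclear pore. Il4i1-202 begins in the first exon of *Nup62*, and only 1 of the 3 introns, chr7:44816484-44832115, leads to *Il4i1* (ENSMUSG00000074141.13). It had a PSI of 0.0151 in dTAG cells and 0.00419 in Ctrl cells, a deltaPSI of 0.01 and a ratio of 3.60. The intron from the same 5′ splice site to exon 2 of *Nup62*, chr7:44816484-44828486, had a PSI of 0.969 in dTAG cells and 0.980 in Ctrl cells. A further 5′ splice site 22 nt upstream was joined to *Nup62* with a PSI of 0.0159 in dTAG cells and 0.0161 in Ctrl cells. Neither GENCODE vM21 nor RefSeq holds that intron. *Nup62* therefore took nearly all reads of the cluster in both conditions, and the *Il4i1* junction was higher by what the main *Nup62* junction was lower, within 0.000142.

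The junction measures 1 form of *Il4i1* that starts at the *Nup62* promoter, Il4i1-202, not the gene as a whole. Il4i1-206, a processed transcript that also starts within the first exon of *Nup62*, does not hold it. Il4i1-201 starts 19804 nt downstream of the shared 5′ splice site and has no intron in a tested cluster. In Il4i1-202 the first exon of 88 nt and the second of 66 nt are non-coding, and the reading frame of 638 codons opens in exon 3. RefSeq assigns this junction to a gene of its own, *Il4i1b*, so the deposited name covers both. The acceptor of *Il4i1* scored 10.5 and that of *Nup62* 8.77 on the scale described for *Wdr20*.

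A difference at a PSI this low is small as a difference and large as a ratio, so introns of a like level were set beside it. Of 731 introns in the tables with a Ctrl PSI between 0.00209 and 0.00838, 22 (3.01%) had a dTAG over Ctrl ratio of at least 3.60, that of *Il4i1* included, and their median ratio was 1.17. Below a Ctrl PSI of 0.02, 181 of 2079 introns were at least 2-fold higher in dTAG cells, a share of 8.71%. Among the 5 introns of the members below that level, 1 was, the *Il4i1* junction, and the other ratios went down to 0.543 in *Knop1*. The gene was selected on this same contrast, and the fold and the bound were set with these values known. The number of reads behind such a PSI is unknown.

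**Figure D3:**
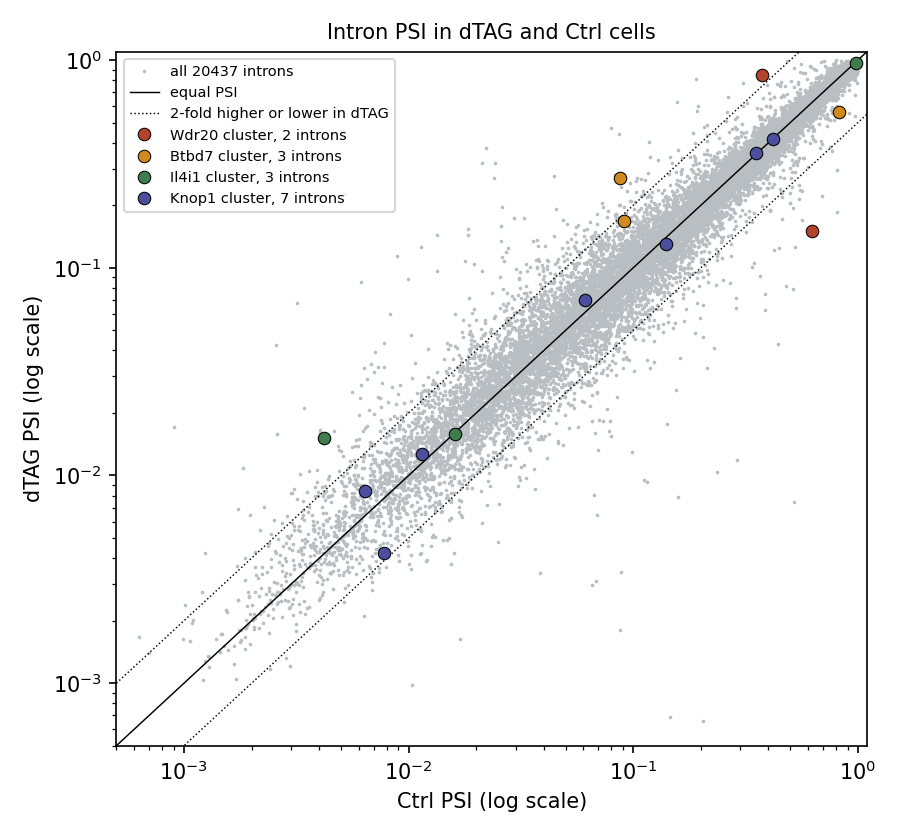
Fitted PSI in dTAG cells (y axis, log scale) against Ctrl cells (x axis, log scale), with all 20437 introns in grey, the 15 introns of the members in colour, a solid line at equal PSI and dotted lines at a 2-fold difference. The *Il4i1* junction lies above the upper dotted line at 0.0151 in dTAG cells and 0.00419 in Ctrl cells, with the distal *Wdr20* junction and the downstream *Btbd7* inclusion junction, and the *Knop1* introns lie between the dotted lines.

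In *Knop1* (ENSMUSG00000030980.17) the cluster has 7 introns, from exon 2 to exon 5 of Knop1-205, and none differed by more than 0.00943. Of the 7, 4 were higher and 3 lower in dTAG cells, between -0.00943 and 0.00901 on the PSI scale (dTAG minus Ctrl). The intron with the largest difference in size, chr7:118846095-118848448, joins exon 4 to exon 5 and had a PSI of 0.130 in dTAG cells and 0.140 in Ctrl cells. It is in all 6 GENCODE transcripts of the gene that span it. The most used intron, chr7:118848575-118850620, joins exon 3 to exon 4 and had a PSI of 0.418 in dTAG cells and 0.420 in Ctrl cells.

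Exon 2 of *Knop1* can end at either of a pair of annotated 5′ splice sites 486 nt apart, or 162 codons. The downstream site opens its intron with GC in place of GT and scored 3.18, among the lowest 3.35% of sites, while the upstream one scored 10.1, at the 83.9 percentile. The GC site carried the larger share, with a PSI of 0.357 in dTAG cells and 0.354 in Ctrl cells, against 0.0700 in dTAG cells and 0.0610 in Ctrl cells for the upstream site. Among reads that end at exon 3, the upstream site had a share of 0.164 in dTAG cells and 0.147 in Ctrl cells.

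The 3 skipping or cryptic junctions of *Knop1* were rare and are in neither annotation. Skipping of exon 4 had a PSI of 0.00423 in dTAG cells and 0.00780 in Ctrl cells. Skipping of the 69 nt exon 3 had a PSI of 0.00844 in dTAG cells and 0.00642 in Ctrl cells. A 5′ splice site inside exon 4, which shortens it by 48 nt, had a PSI of 0.0128 in dTAG cells and 0.0115 in Ctrl cells. Among 54 tested clusters with 7 introns, the largest deltaPSI of *Knop1* was among the 9 smallest, and the median of these clusters was 0.0231.

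The members thus fall into 2 with a large difference and 2 with a small one. The largest deltaPSI in size was 0.477 in *Wdr20*, 0.260 in *Btbd7*, 0.0109 in *Il4i1* and 0.00943 in *Knop1*, while the median over all 7263 tested clusters was 0.0214. It reached 0.1 in 2 of the 4 clusters, and in 336 of all tested clusters, a background of 4.63%. The genes were chosen on this same contrast, so nothing is read from that count or from the places given next. Counting the cluster itself, 4 clusters had a difference at least as large as *Wdr20*, 46 as *Btbd7*, 5140 as *Il4i1* and 5389 as *Knop1*. On the log2 odds scale, which sets low and middle PSI side by side, the same introns differed by 3.25 in *Wdr20*, -1.85 in *Btbd7*, 1.86 in *Il4i1* and -0.12 in *Knop1*, so that *Il4i1* and *Btbd7* came close in size. Other introns differed more on this scale in *Btbd7*, where the junction out of the cassette exon differed by 1.95, and in *Knop1*. There the rare junction that skips exon 4 differed by -0.89. None of these values has an interval here.

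**Figure D4:**
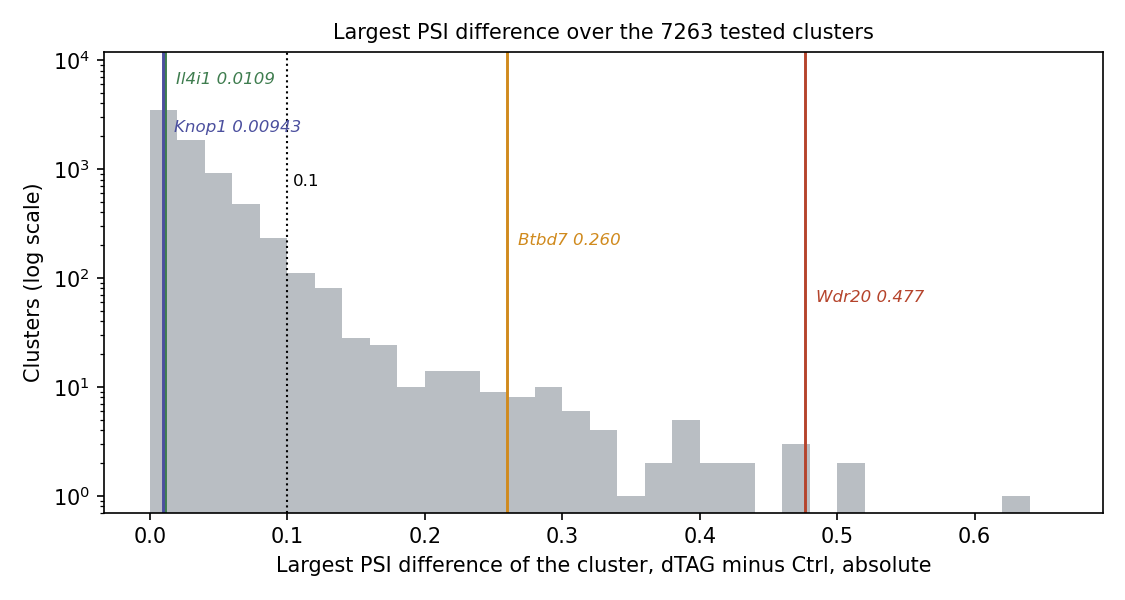
Number of tested clusters (y axis, log scale) by the size of their largest deltaPSI (x axis, dTAG minus Ctrl, absolute, in bins of 0.02), with a coloured line for each member and a dotted line at 0.1. *Wdr20* (0.477) and *Btbd7* (0.260) lie in the thin right tail, and *Il4i1* (0.0109) and *Knop1* (0.00943) in the first and fullest bin.

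The members differ in the kind of choice that the cluster holds. *Wdr20* and *Il4i1* choose between 3′ splice sites of a shared 5′ splice site, at 10291 nt and 3629 nt from each other. In both the distal one was higher in dTAG cells, by 0.477 in *Wdr20* and 0.0109 in *Il4i1*. The distal site was also higher in 113 of the 248 pairs with 3′ splice sites at least 1000 nt apart, so nothing is read from the shared direction. *Btbd7* chooses whether to hold an exon, and there the nearer 3′ splice site of the cassette exon was higher. *Knop1* combines alternative 5′ splice sites of exons 2 and 4 with skipping of exons 3 and 4. Of the 15 introns, 9 are in GENCODE vM21 and 11 in GENCODE or RefSeq. The remaining 4 are the intron from the upstream 5′ splice site of *Nup62* and 3 of *Knop1*.

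The letters GGACT, the most typical form of the m6A consensus, were searched on the transcript strand within 100 nt on each side of the 10 5′ splice sites of the members. None of the 10 windows held them, against 18.8% of the windows at all 13986 5′ splice sites of the tables. Some of these windows overlap, since the pairs in *Nup62* and in exon 4 of *Knop1* lie 22 nt and 48 nt apart. Some exons of the clusters hold the letters outside these windows. Of the exons named next, only exon 3 of *Btbd7* adjoins a searched 5′ splice site. The others lie at the far ends of the introns. There are 4 copies in exon 3 of *Btbd7*, 6 in exon 2 of *Nup62* and 1 in each last exon of *Wdr20*, in the distal one at base 41. GENCODE exons within 10% of the same length were counted beside them. At the length of the *Btbd7* exon 64.5% hold at least 1 copy and 3.77% at least 4, with a median of 1. At that of the *Nup62* exon 85.3% hold at least 1 copy and 3.44% at least 6, with a median of 2. At the lengths of the distal and proximal *Wdr20* exons, 57.5% and 82.4% hold at least 1 copy. The cassette exon of *Btbd7* holds none, as do 93.4% of exons of like length. Exon 2 of *Wdr20*, which adjoins its window, holds none either, as do 81.1% of exons of like length. Exon 4 of *Btbd7*, exon 2 of Il4i1-202 and the 69 nt exon 3 of *Knop1* also hold none. The shares without a copy at their lengths are 77.9%, 93.1% and 92.6%. These are matches of letters, and m6A itself was not measured in the data used here.

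Genes linked to the members by function were looked up in the same tables. *Usp12*, *Usp46* and *Wdr48*, which encode partners of WDR20, and *Usp1*, whose product WDR48 also activates, had 5 tested clusters with differences of at most 0.0328. Of 11 other BTB genes 3 had clusters, the largest difference being 0.0469 in *Btbd1*. Of 11 nucleolar genes 7 had 25 clusters, with a median of 0.00513 and at most 0.0460, in *Npm1*. None of 7 enzymes of amino acid oxidation and tryptophan use had a tested cluster. The count at 0.1 or above was 0 in each of these lists, which is near the background of 4.63% at so few clusters, and nothing is read from it.

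Within 100 kb of a member there were 16 tested clusters, of which 9 lay near *Wdr20*, 3 near *Btbd7*, 4 near *Il4i1* and 0 near *Knop1*. None of the 16 reached a difference of 0.1, a count too small to be told from the background of 4.63%. The largest difference was in *Zfp839*, 61602 nt from the *Wdr20* cluster, where an intron had a PSI of 0.136 in dTAG cells and 0.214 in Ctrl cells. *Mok*, whose nearest cluster lies 4714 nt from that of *Wdr20*, had 4 clusters with differences of at most 0.0755. Neighbours of *Btbd7* differed by at most 0.0390 and neighbours of *Il4i1* by at most 0.0493, in *Med25*.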

How the data were processed

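The authors mapped 4sU-seq reads of 12 samples to mm10 with STAR 2.5.2b, kept uniquely mapped reads, and used LeafCutter to cluster introns with a minimum of split reads and to compare dTAG with Ctrl over both clones. The deposited PSI is a fraction of a cluster's split reads, fitted per condition and not per sample, so that the depth behind a value is unknown. The authors' scores, p-values, effect sizes and deltaPSI columns hold their own comparison and were not used.

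Introns were joined to clusters by chromosome and cluster number. The deposited coordinates are the exon bases beside the intron, since 99.9% of 20437 introns then have GT-AG or GC-AG ends, and introns are given 1-based without those bases. DeltaPSI was computed from the PSI columns. A site's score is the sum of log2 base frequencies over even frequencies, from all sites of the tables, with 1 added to each count. Annotation was GENCODE vM21 and RefSeq on GRCm38.p6. The steps were tested on simulated data. Python 3.11.15, pandas 2.3.3, numpy 2.4.6, pysam 0.24.0, samtools 1.23.1 and matplotlib 3.10.9 were used.

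The members and gene lists were chosen with earlier results of these data known. Named are the members, the gene sharing a cluster with one of them, neighbours within 100 kb, and list genes at a difference of 0.1 or more. Beyond this rule, single genes with the largest value of a list, marker genes and the genes linked to WDR20 are named after their values were seen.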

Additional observations from a re-analysis of the deposited data

How the results depend on the processing

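Of 17 alternative settings, 15 kept the direction and stayed within 1.5 times the value, or, for log2 odds, kept the direction. Among introns that share the most used splice site, skipping in *Btbd7* differed by -0.23 and *Wdr20* was unchanged by construction. That setting gave no value for *Il4i1* and *Knop1*, whose leading introns do not use that site, and leaving out introns under 0.02 gave none for *Il4i1*. The 2 members past 0.1 were 2 at a bound of 0.05 and 2 at 0.2, which their values given above already fix. The background share was 19.8% at 0.05 and 1.14% at 0.2. At 0.1 the background share was 4.12% among clusters with 1 gene name and 4.41% among those with as many introns as a member. GGACT was in 0 of 10 windows at 50 nt and at 200 nt, against 10.0% and 31.9% of all windows of these sizes. Leaving out a replicate or a clone was not run, because each condition has 1 fitted value. No paired analysis was possible because the columns carry no replicate numbers. The depth of each PSI is unknown, which weighs most on the *Il4i1* and rare *Knop1* junctions.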
